A study of Drosophila melanogaster with 4 samples.

Results

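The proteasome subunit genes of Drosophila melanogaster were examined for chromatin enrichment by exex, a homeodomain transcription factor and the fly homologue of HB9. Members were the protein-coding genes whose symbols begin with Rpn or Rpt and a digit, or with Prosalpha or Prosbeta. This choice gave 48 of 13945 protein-coding genes on the 6 main chromosome arms. Of the 48, 16 carry a T or R suffix and are called testis forms here, and the other 32 are called widely used subunits. Expression was not measured, so these names rest on the suffix alone. All 4 libraries came from 1 group: whole embryos of 6 to 24 h from a transgenic line that stably expresses exex with GFP fused to its C-terminus, precipitated with an antibody against GFP. The age is that of the source name, and a separate age field in the labels does not give a usable embryo age. No other genotype, stage or treatment was compared, and whole embryos mix all cell types, so a peak cannot be placed in a tissue. The samples were labelled as biological replicates. Read depth is unknown.

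The proteasome degrades proteins that carry ubiquitin chains. Its 20S core particle is a barrel of alpha and beta rings, in which some of the beta subunits cut peptide bonds. Its 19S regulatory particle caps the barrel, where Rpt subunits form an ATPase ring that unfolds substrates and Rpn subunits bind and trim ubiquitin. Flies also carry duplicated subunit genes that are known for expression in the male germline, and the T and R suffixes mark such copies. The transcription factor Cnc, a relative of mammalian Nrf proteins, is known to raise proteasome gene expression through antioxidant response elements. Many housekeeping promoters of flies carry the DNA replication-related element, TATCGATA, which the factor Dref binds.

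The sequences at 4 subunit promoters with a summit in the IDR list are shown first, because they hold the letters under the enrichment described here. IDR is the irreproducible discovery rate, a filter on agreement between replicates. All 7909 peaks of this list were identical to the 7909 peaks of the pooled list with the highest signal, so a peak in it need not be ranked alike in every replicate. A summit is the highest point of a peak. The windows are on dm6, 5′ to 3′ on the strand of the subunit gene, with annotated exons trimmed off. Capitals mark TAATTA, the core that many homeodomain proteins bind. It was present in the window of Rpn5 (chr3R:5789204-5789328, plus strand) and in none of the windows of Prosalpha6 (chr2L:10220953-10221078, plus strand), Rpn2 (chr3R:29153334-29153484, plus strand) and Rpn11 (chr2L:5059827-5059977, minus strand). The windows come from genes whose strongest summit lay in an intron or between genes, and summits in 5′ UTRs were left out. The strongest summits of Rpn8 and Rpn13 also lay in introns and are not shown. GC content of the windows shown was 27.2% in Rpn5, 29.4% in Prosalpha6, 29.1% in Rpn2 and 26.5% in Rpn11. The median over all 12 summits at subunit promoters was 34.8%, with a range of 24.5 to 55.6%. That median was taken over full windows of 151 bp, whereas trimming shortened those of Rpn5 and Prosalpha6.
Rpn5: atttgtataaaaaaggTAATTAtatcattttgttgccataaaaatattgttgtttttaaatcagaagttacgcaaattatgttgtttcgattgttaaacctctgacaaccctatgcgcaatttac
Prosalpha6: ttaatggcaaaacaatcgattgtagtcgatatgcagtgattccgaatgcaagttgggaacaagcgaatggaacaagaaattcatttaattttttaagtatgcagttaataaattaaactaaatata
Rpn2: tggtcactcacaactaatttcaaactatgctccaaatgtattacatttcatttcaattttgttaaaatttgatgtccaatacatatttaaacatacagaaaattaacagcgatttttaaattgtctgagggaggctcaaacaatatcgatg
Rpn11: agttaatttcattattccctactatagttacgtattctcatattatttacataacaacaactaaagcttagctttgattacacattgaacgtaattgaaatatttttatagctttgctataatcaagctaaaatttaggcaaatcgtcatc

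Promoters of widely used subunits also held the DNA replication-related element more often than promoters of all genes, with the counts given among the promoter sequences, and 4 short stretches around it are shown here. Capitals mark TATCGATA in Prosalpha6 (chr2L:10221308-10221350, plus strand), Prosbeta2 (chr3L:14999914-14999950, plus strand), Prosbeta6 (chr3L:16610428-16610488, minus strand) and Rpn12 (chr3L:16582785-16582845, plus strand). The windows follow the gene strand and stop at annotated exons. They were not chosen by enrichment: only Prosalpha6 had an IDR promoter summit, and Prosbeta2 had no promoter peak in any complete list. The element lay within 100 bp of none of the 12 IDR summits at subunit promoters. The 5′ base of the element lay at −16 bp from the transcription start site (TSS) of Prosalpha6, −10 bp in Prosbeta2, −44 bp in Prosbeta6 and −216 bp in Rpn12. A negative distance is upstream.
Prosalpha6: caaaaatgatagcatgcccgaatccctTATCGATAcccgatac
Prosbeta2: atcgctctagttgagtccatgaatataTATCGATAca
Prosbeta6: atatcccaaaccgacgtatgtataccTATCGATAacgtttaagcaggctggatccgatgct
Rpn12: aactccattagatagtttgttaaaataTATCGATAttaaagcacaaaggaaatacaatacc

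Each replicate list held 30000 peaks whatever its enrichment, and the IDR list held 7909. Each replicate was therefore represented by its 7909 peaks with the highest signal value, called its highest peaks, and rank 1 is the highest signal in a list. Replicate 4 stood apart from the others. Of its 30000 peaks 23.2% had a q-value under 0.01, against 43.1%, 39.6% and 46.2% in replicates 1, 2 and 3. Those were 6947 peaks in replicate 4, and 12935, 11893 and 13846 in replicates 1, 2 and 3. The highest peaks of replicate 4 therefore include some that miss this limit, and the cut at 7909 was not equally strict in every replicate. Results that rest on replicate 4 are given with and without it. No pair of replicate lists shared an identical peak.

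Of the 48 subunit genes, 9 had an IDR summit within 1000 bp of a TSS, a share of 18.8% with a 95% Wilson interval of 10.2 to 31.9%. The background over all protein-coding genes was 28.2%. None of the 16 testis forms was among the 9, which allows a share of up to 19.4%. The 9 were all widely used subunits, a share of 28.1% of 32 with an interval of 15.6 to 45.4%, close to the background. Of the 18 widely used regulatory particle genes 7 had such a summit (38.9%), and of the 14 core particle genes 2 had one (14.3%). A stricter rule kept an IDR peak only where each of the 4 replicates had a highest peak on it, which left 3 subunit genes (6.25%), Rpn8, Rpn13 and Prosalpha4, beside a background of 18.2%. All 3 were widely used subunits (9.38% of 32). With this rule asked of 3 replicates, the count of subunit genes was 5 without replicate 1, 4 without replicate 2, 4 without replicate 3 and 3 without replicate 4. The backgrounds were then 19.8%, 19.7%, 18.9% and 20.2%, above the shares of subunit genes and of widely used subunits in all 4 cases. For widely used subunits the share was thus below the background under the stricter rule, where in the IDR list it was close. Their Wilson intervals still held the background in all 4 cases, so a departure from it is not shown. The intervals were 6.86 to 31.8% without replicate 1, 4.97 to 28.1% without replicate 2 or 3, and 3.24 to 24.2% without replicate 4. The 4 cases share the genes kept by the rule asked of 4 replicates.

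The strongest summit of any subunit gene lay at Rpn8, whose product sits in the lid of the regulatory particle beside the deubiquitinase Rpn11. Rpn8 (FBgn0002787) lies on chromosome arm 2R from 24400028 to 24404527 on the plus strand. Its summit at 24399614 had rank 199 of 7909 in the IDR list and lay at −414 bp, within an intron of the divergent gene Slik. The rank was 178, 462, 179 and 195 in replicates 1, 2, 3 and 4, so every replicate placed it near the top of its list and replicate 2 lower than the rest. The replicate summits lay between −432 and −380 bp. A second IDR summit of the same peak, at 24399834, had rank 4377 and lay at −194 bp. Of the 9 genes, Rpn8 alone had a rank under 1000 in the IDR list.

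Both core particle genes among the 9 encode alpha ring subunits, and in both the summit was nearest to the TSS of the neighbouring gene. Prosalpha4 (FBgn0004066, X from 16276270 to 16277587, plus strand) had rank 2415, with a summit at 16275906. The summit was at −364 bp from its own TSS and 11 bp from that of kat80, in the 5′ UTR of kat80. Its ranks were 3754, 1981, 2305 and 1982 in replicates 1 to 4, so it was among the highest peaks of all 4. Prosalpha6 (FBgn0250843, 2L from 10221351 to 10222546, plus strand) had rank 5499, at −348 bp, in an intron of Npc1a and 51 bp from the Npc1a TSS. A second Prosalpha6 summit in the IDR list had rank 7128 and lay at −148 bp. Replicates 1 and 2 had no promoter peak at this gene. Its strongest promoter peak had rank 4503 at −403 bp in replicate 3 and rank 2389 at −157 bp in replicate 4.

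The other 6 regulatory particle genes with an IDR summit had ranks from 4923 to 7389. Rpn13, a ubiquitin receptor, had rank 4923 at −965 bp, the farthest of the 9, and the TSS of CtsL1 was 188 bp from that summit. A second Rpn13 summit in the IDR list had rank 6175 and lay at −369 bp. The rank of a gene in a replicate is that of its strongest promoter peak there, which need not lie at the IDR summit. For Rpn13 the ranks were 4074, 6450, 5216 and 3205 in replicates 1 to 4, at −965, −392, −950 and −359 bp. Rpn5, a lid subunit, had rank 5415 at −214 bp in an intron of Hat1. The strongest promoter peak of Rpn5 had ranks 19836, 5065, 5643 and 4072 in replicates 1 to 4, at −31, −151, −82 and −192 bp. Replicate 1 thus ranked this promoter far below the other 3 replicates. Rpn2, a scaffold of the base that docks Rpn13, had rank 5558 at −115 bp, between genes. It was ranked 4663, 6883 and 5921 in replicates 1, 3 and 4 and had no promoter peak in replicate 2.

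Rpn11, the deubiquitinase of the lid, had rank 5951 at −112 bp, also between genes. Its ranks were 9455, 5389, 5703 and 6371, outside the highest peaks in replicate 1. Rpn9, a lid subunit, had rank 6554 at 183 bp downstream, in its own 5′ UTR. Rpn9 ranked 6582, 6094, 9034 and 7449 in replicates 1 to 4, with those summits at −206, 97, 182 and 81 bp. Rpt2, an ATPase, had rank 7389 at 1 bp from its own TSS, the nearest of the 9. Rpt2 had no promoter peak in replicate 1 and ranked 7878, 6360 and 10319 in replicates 2, 3 and 4. Only Rpn8, Rpn13 and Prosalpha4 were among the highest peaks of all 4 replicates, 9.38% of widely used subunits against 18.7% of the genes outside the proteasome.

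**Figure D1:**
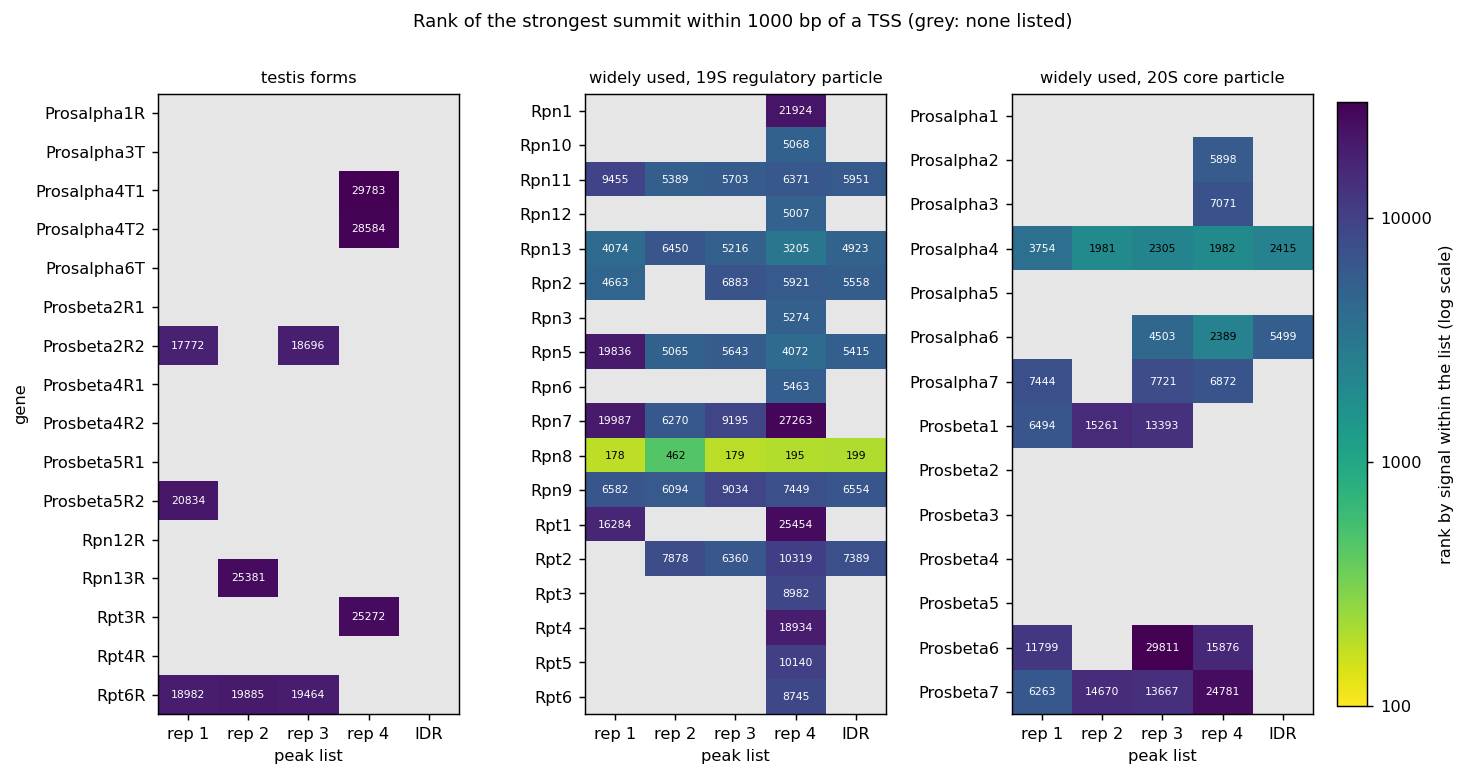
Rank of the strongest summit within 1000 bp of a TSS for each of the 48 subunit genes, in the complete lists of replicates 1 to 4 and in the IDR list, with genes down the page, colour on a log scale and grey where no summit was listed. No testis form has an entry in the IDR column, and all 18 widely used regulatory particle genes have one in the replicate 4 column. Of those 18, 9 had a q-value under 0.01 in replicate 4.

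In 8 of the 9 genes the TSS of another protein-coding gene lay within 1000 bp of their own, and Rpn11 was the exception. The gene's own TSS was the nearest TSS to the strongest summit in 4 of the 9 genes (44.4%), namely Rpn8, Rpn2, Rpn11 and Rpt2, against 75.4% of the 3921 other genes with an IDR promoter summit. The strongest summit was upstream in 7 of the 9 (77.8%), against 73.2% of the other genes. Its median distance from the TSS was 214 bp, against 196 bp, and its median rank 5499, against 3530. A divergent partner, that is, a protein-coding TSS on the other strand within 1000 bp upstream, was annotated for 4 of 16 testis forms (25%), 22 of 32 widely used subunits (68.8%) and 36.2% of the genes outside the proteasome. Of the 22 widely used subunits with a divergent partner 8 had an IDR summit (36.4%), against a background of 39.7% over all genes with such a partner. Of the 10 without one, 1 had an IDR summit, Rpn11, against 21.7% of the other genes without a partner.

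No testis form had a promoter summit among the highest peaks of any replicate, while the widely used subunits had 8, 8, 9 and 15 in replicates 1 to 4. The shares of all protein-coding genes were 27.5%, 26.0%, 28.0% and 32.2%. Testis forms averaged 0 and widely used subunits 31.3 ± 10.5% (SD, n = 4 replicates). The difference, testis forms minus widely used subunits, was −25, −25, −28.1 and −46.9 percentage points in replicates 1 to 4. Its mean was −31.3 ± 10.5 points (SD), lower in 4 of 4 replicates, with p = 0.13 in an exact two-sided sign-flip permutation test over the replicates. That is the smallest p that 4 replicates allow, so no difference over these replicates can pass 0.05. Adjusted over the 6 differences tested with the Benjamini-Hochberg method, this exact test gave 0.188. Without replicate 4 the difference was −26.0 points.

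The complete lists did hold peaks at testis promoters, all of them weak. Their counts were 3, 2, 2 and 3 of 16 in replicates 1 to 4, against 13, 10, 14 and 25 of 32 widely used subunits and backgrounds of 48.2%, 44.9%, 48.0% and 59.9%. The pooled list held 1 testis form and 14 widely used subunits, beside a background of 46.7%. Rpt6R, a copy of an ATPase, recurred most often, with ranks of 18982, 19885 and 19464 in replicates 1, 2 and 3. Prosbeta2R2, a copy of a catalytic subunit, had ranks of 17772 in replicate 1 and 18696 in replicate 3. Each of the remaining 5 appeared in 1 replicate. Prosbeta5R2 had rank 20834 in replicate 1, and Rpn13R had rank 25381 in replicate 2. In replicate 4, Rpt3R had rank 25272, Prosalpha4T2 had 28584 and Prosalpha4T1 had 29783. None of these peaks had a q-value under 0.01. The other 9 testis forms, Prosalpha1R, Prosalpha3T, Prosalpha6T, Prosbeta2R1, Prosbeta4R1, Prosbeta4R2, Prosbeta5R1, Rpn12R and Rpt4R, had no promoter peak in any complete list.

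**Figure D2:**
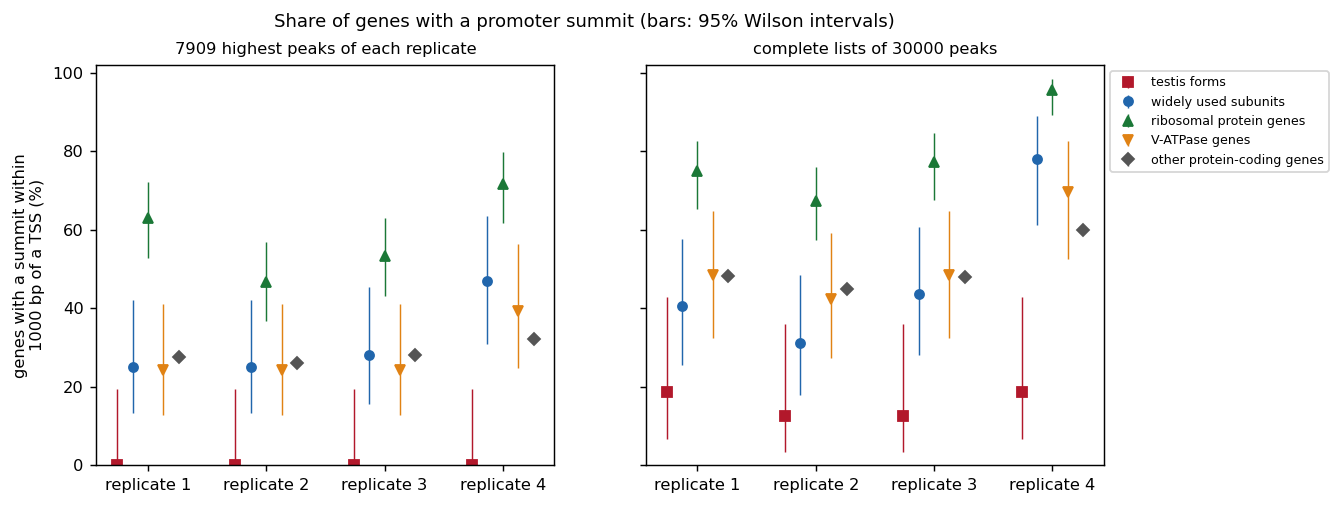
Share of genes (%) with a summit within 1000 bp of a TSS in each replicate, in its 7909 highest peaks on the left and its complete list on the right, with 95% Wilson intervals as bars. In the highest peaks, testis forms lie at 0 in every replicate and widely used subunits at 25, 25, 28.1 and 46.9%, below the ribosomal protein genes throughout.

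Taken over all 48, subunit genes had fewer promoter summits than the other genes in each replicate. Their counts among the highest peaks were 8, 8, 9 and 15. The difference was −10.8, −9.36, −9.28 and −0.966 percentage points in replicates 1 to 4, with a mean of −7.61 ± 4.49 points (SD, n = 4; exact permutation p = 0.13, adjusted 0.188). Without replicate 4 the mean was −9.83 points. For the widely used subunits alone the direction varied. They differed from the other genes by −2.50, −1.03, 0.0902 and 14.7 points in replicates 1 to 4. The mean was 2.81 ± 7.97 points, with an exact permutation p of 0.875. Without replicate 4 it was −1.15 points, the opposite sign, and with the complete lists it was −1.84 points.

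The regulatory particle genes had 4, 7, 6 and 10 of 18 promoter summits in replicates 1 to 4, against 4, 1, 3 and 5 of 14 for the core particle genes. The regulatory share averaged 37.5 ± 13.9% and the core share 23.2 ± 12.2% (SD, n = 4). The difference was −6.35, 31.7, 11.9 and 19.8 points, with a mean of 14.3 ± 16 points (exact permutation p = 0.25, adjusted 0.3). It was higher in the regulatory particle in 3 of 4 replicates and was smaller than the spread between replicates. Without replicate 2 it was 8.47 points, and in the upper 50% of each list by signal it was −1.98 points.

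Widely used subunits were also set against 2 other groups of genes for large complexes. These were taken by symbol alone, beginning with RpL or RpS and a digit or P, or with Vha. No gene was removed from them by suffix, whereas the testis forms were left out of the subunits, so the groups were not chosen alike. The 92 ribosomal protein genes had IDR promoter summits in 57 (62.0%), and their share in the highest peaks averaged 58.7 ± 11%. Widely used subunits minus ribosomal protein genes gave −38.0, −21.7, −25.1 and −24.9 points in replicates 1 to 4, a mean of −27.4 ± 7.23 points, lower in 4 of 4 replicates (exact permutation p = 0.13, adjusted 0.188). The 33 genes of the vacuolar ATPase (V-ATPase), a proton pump, had IDR promoter summits in 10 (30.3%), and averaged 28.0 ± 7.58% in the highest peaks. The widely used subunits differed from them by 0.758, 0.758, 3.88 and 7.48 points, a mean of 3.22 ± 3.20 points (exact permutation p = 0.13, adjusted 0.188). In replicates 1 and 2 each group had 8 genes with a summit, of 32 and of 33, so those differences came from group size alone. The p-value rests on their sign. The mean difference was 1.80 points without replicate 4 and had the opposite sign, −3.84 points, in the complete lists.

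Replicate 4 held promoter peaks at widely used subunits that the other libraries lacked. All 18 regulatory particle genes had a promoter peak in its complete list, against 8, 7 and 8 of 18 in replicates 1, 2 and 3. The shares of all genes were 59.9% in replicate 4, against 48.2%, 44.9% and 48.0%. With a q-value under 0.01 required, the regulatory particle counts were 5, 7, 8 and 9 of 18 in replicates 1 to 4. The shares of all genes were then 36.8%, 32.7%, 38.5% and 29.5%. In the complete lists, ribosomal protein genes were also most often listed in replicate 4, 88 of 92 (95.7%), against 69, 62 and 71 of 92. For the core particle the count in replicate 4 was 7 of 14, against 5, 3 and 6. Among its highest peaks, 6 widely used subunits had a summit that no complete list of the other 3 replicates held, a share of 18.8% against a background of 3.48% (485 of 13945 genes). The same count over all genes was 8 in replicate 1 (0.0574%), 2 in replicate 2 (0.0143%) and 11 in replicate 3 (0.0789%), and none of these genes was a proteasome subunit. Among the ribosomal protein genes 3 of 92 were found in replicate 4 alone, and among the V-ATPase genes 3 of 33.

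The 6 genes were Rpn12, Rpn10, Rpn3, Rpn6, Prosalpha2 and Prosalpha3. Rpn10 is a ubiquitin receptor, Rpn3, Rpn6 and Rpn12 are lid subunits, and the other pair belongs to the alpha ring. In replicate 4, Rpn12 had rank 5007, Rpn10 had 5068, Rpn3 had 5274, Rpn6 had 5463, Prosalpha2 had 5898 and Prosalpha3 had 7071. These summits lay at −342 bp in Rpn12, 9 bp in Rpn10, −84 bp in Rpn3, −137 bp in Rpn6, −178 bp in Prosalpha2 and −13 bp in Prosalpha3. Thus 5 of the 6 lay within 200 bp of the TSS. A divergent partner was annotated for 3 of the 6, against 363 of the 479 other genes found in replicate 4 alone. Of the 6 peaks, 5 had a q-value under 0.01 in replicate 4, and that of Prosalpha3 did not. Among the peaks of replicate 4 with a q-value under 0.01, 13 of 32 widely used subunits had a promoter summit (40.6%), against 29.5% of all genes. Replicate 3 had the same count with this limit, 13 of 32, against 38.5% of all genes. The counts in replicates 1 and 2 were 10 and 8 of 32, against 36.8% and 32.7%.

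Of the 23 widely used subunits with no IDR promoter summit, 17 had a promoter peak in some complete list, the 6 above among them. Rpn1, Rpt3, Rpt4, Rpt5 and Rpt6 had one in replicate 4 alone, with ranks of 21924, 8982, 18934, 10140 and 8745. Rpn1 is a scaffold of the base and the Rpt genes encode ATPases. Rpn7, a lid subunit, was listed in all 4 replicates, with ranks of 19987, 6270, 9195 and 27263. Prosbeta7, in the beta ring, was also listed in all 4, with ranks of 6263, 14670, 13667 and 24781. Prosbeta1, which carries the caspase-like activity, had ranks of 6494, 15261 and 13393 in replicates 1, 2 and 3.

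Prosalpha7 had ranks of 7444, 7721 and 6872 in replicates 1, 3 and 4, and its pooled peak had rank 8246, just below the 7909 that entered the IDR list. Prosbeta6 had ranks of 11799, 29811 and 15876 in replicates 1, 3 and 4. Rpt1 had ranks of 16284 in replicate 1 and 25454 in replicate 4. The 6 with no promoter peak in any complete list were Prosalpha1, Prosalpha5, Prosbeta2, Prosbeta3, Prosbeta4 and Prosbeta5, all of the core particle. Prosbeta2 and Prosbeta5 carry the trypsin-like and the chymotrypsin-like activity. Over all genes outside the proteasome, 29.8% had no promoter peak in any complete list, against 56.3% of testis forms and 18.8% of widely used subunits.

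A wider window took in the gene body and 5000 bp on each side. In the IDR list 23 of 48 subunit genes had a summit there, 4 of 16 testis forms (25%) and 19 of 32 widely used subunits (59.4%), beside a background of 55.4%. Among the highest peaks the counts were 4, 4, 4 and 3 for testis forms and 16, 18, 20 and 25 for widely used subunits, with backgrounds of 55.0%, 53.2%, 55.3% and 60.3%. The 4 testis forms were Rpt4R with rank 325, Prosbeta2R2 with rank 2095, Rpt3R with rank 4397 and Rpt6R with rank 4797. In each of the 4 the summit was nearest to the TSS of another gene. That gene was CG7252 at 143 bp for Rpt4R, cno at 1944 bp for Prosbeta2R2, Mpi at 1632 bp for Rpt3R and CG9717 at 1333 bp for Rpt6R.

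In 18 of the 19 widely used subunits (94.7%) the strongest summit of this window was likewise nearest to the TSS of another gene, against 68.6% of the other genes with a summit there. The exception was Rpn8. The strongest after Rpn8 were those of Rpn9 with rank 314, Rpn5 with rank 666 and Rpn2 with rank 673. Rpt5 had rank 795 there, 141 bp from the TSS of Hrd3, although its own promoter had no IDR summit. Among the other genes with no IDR summit at their own promoter, Prosalpha3 had rank 1291, 18 bp from the TSS of CG10543, and Rpn7 had rank 1296, 141 bp from that of CG7054. Just outside the 1000 bp limit lay Rpt1, with its nearest IDR summit at 1290 bp, and Prosalpha7, at 1308 bp. The nearest IDR summit was 3760 to 90658 bp from the TSS in testis forms, with a median of 19624 bp. In widely used subunits it was 1 to 25449 bp away, with a median of 3298.5 bp, and in the other genes the median was 5019 bp. Median gene length was 1282 bp in testis forms, 1390 bp in widely used subunits and 2173 bp in the other genes, so the wider window was not of equal length.

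**Figure D3:**
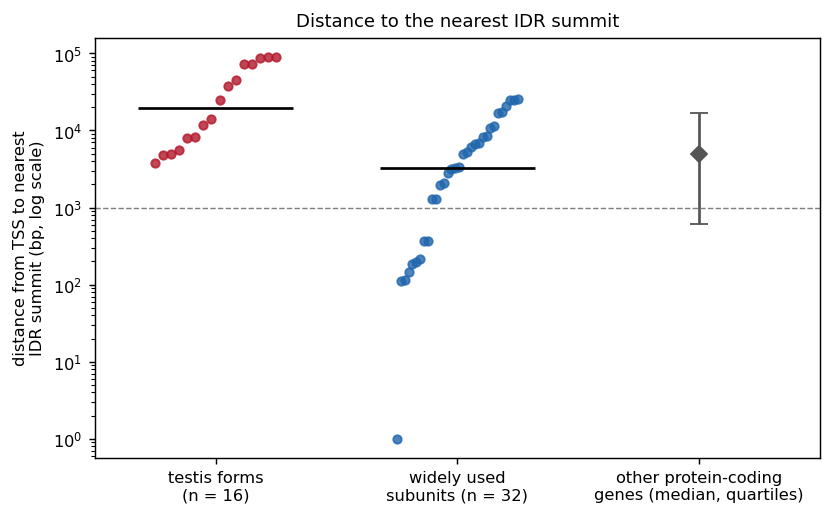
Distance (bp, log scale) from the TSS to the nearest IDR summit for each testis form and each widely used subunit, with black lines at the medians, and the median and quartiles of the other protein-coding genes; the dashed line marks 1000 bp. All 16 testis forms lie above 1000 bp, from 3760 bp up, and 9 widely used subunits lie below it.

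Sequences within 100 bp of the 12 IDR summits at subunit promoters were compared with those of all 4342 promoter summits in the IDR list. Both strands were searched, and the sequences TAATTA and TATCGATA read the same on both. TAATTA lay beside 4 of the 12 summits (33.3%, Wilson interval 13.8 to 60.9%), at Rpn8, Prosalpha4, Rpn5 and Prosalpha6, against 19.5% of all promoter summits. CTTATC, a sequence that GATA factors bind, lay beside 5 of the 12 (41.7%, interval 19.3 to 68.0%), against 31.5%. Both summits of the Rpn8 peak were among these 5. The 12 summits came from 9 genes, and the intervals treat summits of the same gene as independent. Among the highest peaks of replicates 1 to 4, the CTTATC share at subunit promoters was 20%, 20%, 36.4% and 23.8%, against 33.4%, 29.8%, 30.5% and 28.2% at all promoter summits, so it was lower in 3 of 4 replicates. The TAATTA share there was 20%, 30%, 27.3% and 19%, against 18.1%, 20.2%, 20.2% and 17.7%. TATCGATA and TGACNNNGC, the antioxidant response element, lay beside none of the 12, which allows a share of up to 24.2%, against 4.33% and 4.63% of all promoter summits. Both of the higher shares had intervals that held the share of all promoter summits. Within 50 bp the share was 25% for TAATTA and 0 for CTTATC. Median GC content over 151 bp was 34.8% at subunit summits and 38.4% at all promoter summits.

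The promoters themselves, 250 bp before to 50 bp after the TSS, were searched for the same 4 sequences. TATCGATA was present in none of the 16 testis forms, which allows up to 19.4%, in 12 of 32 widely used subunits (37.5%, interval 22.9 to 54.7%) and in 9.36% of all promoters of this length. The 12 genes were Prosalpha3, Prosalpha5, Prosalpha6, Prosbeta1, Prosbeta2, Prosbeta6, Rpn3, Rpn7, Rpn9, Rpn12, Rpn13 and Rpt5, 6 in each particle. Among ribosomal protein genes the share was 30.4%, and among V-ATPase genes 6.06%. The 5′ base of the element lay between −217 and 26 bp from the TSS, with a median of −45 bp, and upstream in 10 of the 12. An IDR promoter summit was present in 3 of the 12 widely used subunits with the element and in 6 of the 20 without it, against 38.6% of all genes with the element and 27.1% of those without.

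CTTATC was present in 3 of 16 testis promoters (18.8%), 12 of 32 widely used promoters (37.5%) and 18.9% of all promoters. In Prosalpha6, Rpn13 and Rpt5 a CTTATC match overlapped a TATCGATA match. TAATTA was present in 2 of 16 testis promoters (12.5%), 3 of 32 widely used promoters (9.38%) and 20.4% of all promoters. TGACNNNGC was present in 1 of 16 testis promoters (6.25%), 5 of 32 widely used promoters (15.6%) and 8.63% of all promoters. The 5 were Prosalpha2, Prosbeta3, Rpn1, Rpn7 and Rpt6, and none of them had an IDR promoter summit. Of the 6 subunits found in replicate 4 alone, 3 had TATCGATA in the promoter (Prosalpha3, Rpn3 and Rpn12), against 76 of 479 other such genes (15.9%). Among widely used subunits listed in all 4 complete lists it was 3 of 8, against 11.7% of the genes outside the proteasome listed alike. Among those listed in none it was 2 of 6, against 4.49%.

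**Figure D4:**
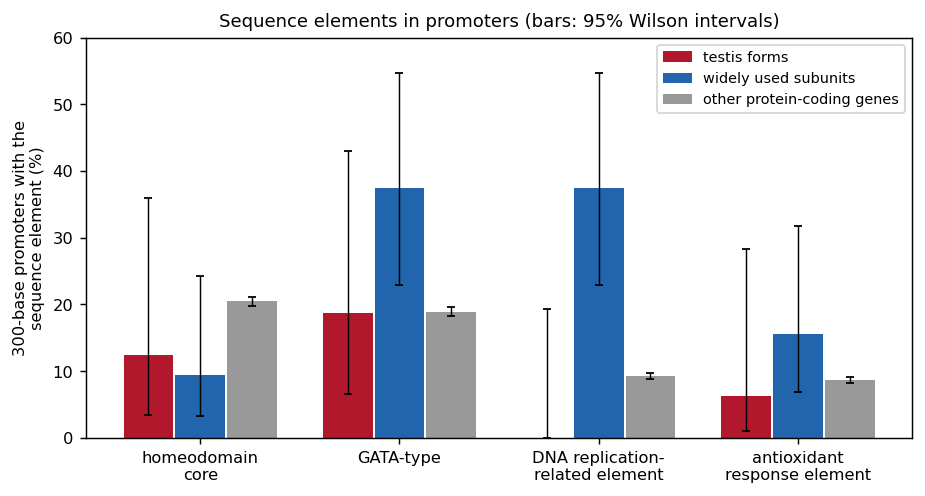
Share (%) of 300-base promoters that hold the homeodomain core, the GATA-type sequence, the DNA replication-related element or the antioxidant response element on either strand, for testis forms, widely used subunits and other protein-coding genes, with 95% Wilson intervals as bars. The DNA replication-related element stands at 0 in testis forms, 37.5% in widely used subunits and 9.30% in other genes.

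Other genes of the ubiquitin-proteasome pathway were taken from 6 lists, of which 46 of 52 symbols matched the annotation. An IDR promoter summit was present in 16 of the 46 (34.8%), beside the background of 28.2%, and the highest peaks held 14, 13, 15 and 21 of them in replicates 1 to 4. By role, the counts were 6 of 10 ubiquitin-conjugating genes, 3 of 8 ubiquitin precursor and activation genes, 3 of 12 ligase scaffolds, 2 of 3 genes of the Cnc group, 1 of 7 proteasome assembly and regulator genes and 1 of 6 shuttle and TER94 genes. The strongest was cnc, with rank 203 in the IDR list and 216, 184, 182 and 348 in replicates 1 to 4. This gene has 10 annotated TSSs, which gives a summit more places to fall.

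Keap1, which in flies as in mammals holds Cnc proteins in check, had rank 3754, with 3861, 3170, 2951 and 1717 in replicates 1 to 4. The Cnc partner maf-S had no IDR promoter summit and rank 8946 in replicate 4 alone. Ubi-p63E, a polyubiquitin gene, had rank 816, with 1138, 1380 and 1350 in replicates 1 to 3 and 105 in replicate 4. Uba2, which activates the ubiquitin-like protein SUMO, had rank 1538, with 1963, 1671, 2168 and 661. The proteasome assembly factor Pomp had rank 3209 at −193 bp, with 3062, 2645, 3852 and 4423, so it was listed high in all 4 replicates.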

How the data were processed

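Anti-GFP ChIP-seq of 4 biological replicates was used, grouped by the source name in the labels, with chromatin fragments of 200 to 800 bp. The authors deposited narrowPeak lists on dm6: 1 list per replicate, 1 of the replicates pooled and 1 left after IDR filtering. The replicate and pooled lists share 1 further input, per the deposited file lists. For the aligner, the peak caller and the thresholds, the sources used here name nothing, and the labelled control experiment was not analysed here. The signal value deposited with each peak is a score, used for ranking within a list, and the deposited q-value, on a −log10 scale, was used only with the limit 0.01. The IDR peaks are pooled peaks, and their replicate support is not independent of the replicate lists.

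Genes and TSSs came from Ensembl release 115, with 19252 distinct TSSs, and sequences from the matching dm6 reference of RefSeq. A summit counted for every gene with a TSS within 1000 bp. Shares were compared within each replicate by an exact two-sided sign-flip permutation test over the 4 replicates, with Benjamini-Hochberg adjustment over 6 differences. The p-values measure only the spread between these samples. Intervals are 95% Wilson intervals over genes or summits, which are not replicates of a condition. Without a replicate, an IDR peak was kept if the 3 remaining replicates each had a highest peak on it, with at least 1 bp shared. Other settings were a 500 bp promoter, the nearest TSS only, the upper 50% of each list, the complete lists and peaks with a q-value under 0.01. The counting was tested on simulated data.

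The members and lists were chosen with earlier results of these data known. The genes described in full were, by rule, those with the strongest IDR promoter summits (9 of an allowed 10), the testis forms with any promoter peak, the widely used subunits without an IDR promoter summit and the nearest and farthest summits. Of the pathway lists, up to 4 genes with the strongest summits and the Cnc group were named, and 1 of these genes is not reported here. Pomp, and the neighbours of the wider window, were chosen after their values were seen. The comparisons with ribosomal protein and V-ATPase genes, their other settings, those of the wider window and the overlap in all 4 replicates were added after seeing the data. Computation was in Python (3.11.15) with scipy (1.17.1), pandas (2.3.3) and numpy (2.4.6), and plots were made with matplotlib (3.10.9).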

Additional observations from a re-analysis of the deposited data

Results flagged for a closer look

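Of the measures taken in all 4 replicates, 33 were examined for a replicate far from the other 3, and 11 had one. The limit used is passed by about 1 in 20 groups of independent values by construction, and several of these measures share counts or hold tied values, so they are not independent.

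Replicate 4 was far from the others in 7 of the 11. It had the highest share of subunit genes with a promoter summit, 31.25%, and of widely used subunits, 46.875%. The differences followed, with −46.875 points for testis forms minus widely used subunits, −0.966 points for subunit genes minus the other genes and 14.7 points for widely used subunits minus the other genes. Its complete list held 100% of the regulatory particle genes, of which 9 of 18 had a q-value under 0.01. Replicate 4 also had the lowest share of testis forms with a summit in the wider window, 18.75%.

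The share of subunit promoter summits with TATCGATA was 0 in replicate 3, against 10%, 10% and 9.52% in replicates 1, 2 and 4. The share with TGACNNNGC was 10% in replicate 1, which is 1 of 10 summits, and 0 in the other 3. Rpn5 had rank 19836 in replicate 1 and Rpn8 had rank 462 in replicate 2, in each case lower in the list than in the other 3 replicates.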

How the results depend on the processing

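The 9 subunit genes with an IDR promoter summit, all widely used, were 4 with the nearest TSS only (12.5% of widely used subunits, against 22% of all genes) and 2 in the upper 50% of the list (6.25%, against 15.8%). The count stayed at 9 within 500 bp of a TSS (28.1%, against 23.6%). In the pooled list with a q-value under 0.01 it was 13 (40.6%, against 36.2%), again all widely used. For all subunits the count was 23 in the wider window and 15 in the pooled list, and for widely used subunits 19 and 14. For testis forms it was 4 in the wider window and 1 in the pooled list. With an overlap required in all 4 replicates, 3 genes were left, and with the same overlap required in 3 of them 3 to 5, all widely used. The rule asked of 3 replicates keeps every gene that the rule asked of 4 keeps. Its counts could therefore not be lower, and they are no test of how the count depends on a replicate.

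Widely used subunits minus other genes, 2.81 points, changed sign with the nearest TSS only (−5.80), in the upper 50% (−8.23), in the complete lists (−1.84) and with q under 0.01 (−0.0479), and ranged from −1.15 to 4.57 with a replicate left out. This difference was 6.44 points with a 500 bp promoter and 5.76 points in the wider window. Widely used subunits minus V-ATPase genes changed sign with the nearest TSS only (−4.81), in the upper 50% (−10.4), in the complete lists (−3.84) and with q under 0.01 (−4.26). Regulatory minus core particle changed sign in the upper 50% (−1.98) and ranged from 8.47 to 21.2 points with a replicate left out. The cause was not tested. Testis forms minus widely used subunits, subunit genes minus the other genes, and widely used subunits minus ribosomal protein genes kept their sign in all 10 settings, and without a replicate they ranged from −33.3 to −26.0, −9.83 to −6.54 and −29.3 to −23.9 points. Each was negative in every replicate, so leaving a replicate out could not change the sign. Testis forms had no summit within 500 bp, with the nearest TSS only, in the upper 50% or with q under 0.01. In those settings their difference could not be positive, so its sign there is no test.

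TAATTA was beside 25% of summits within 50 bp and 20% with the nearest TSS only, and 33.3 to 50% without a replicate. CTTATC was beside 0, 60% and 50 to 75%. With the nearest TSS only the summits belonged to 4 genes, and without a replicate to 3 to 5 genes. Both Rpn8 summits were among the CTTATC matches in these settings, so the shares rest on few places. The shares of all promoter summits in the same settings are not given here. Depth is unknown, and groups of 14 to 33 genes give wide intervals. No replicate block between conditions could be fitted with 1 group; the differences between gene groups were taken within each replicate.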
